A study of Homo sapiens with 8 samples.

Results

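The HOXA cluster genes HOXA5, HOXA6, HOXA9, HOXA10, HOXA11 and HOXA13 were followed through lists of regions whose H3K79me2 or H3K79me3 ChIP-seq signal differed between ShLAMP5-AS1 and ShNC MOLM-13 cells. A region was taken as a member when any of its gene annotation columns (promoter, 2 kb upstream, exon, intron, 2 kb downstream, 5' UTR or 3' UTR) named at least 1 of these 6 genes. This gave 17 of 22412 regions, 9 of 8746 for H3K79me2 and 8 of 13666 for H3K79me3. Each of the 6 genes was named by at least 1 region, against 23.8% of 20056 protein-coding RefSeq genes. The 6 were chosen with earlier results of these data known, so this count is no result about them. MOLM-13 is an acute myeloid leukemia line with an MLL fusion gene. ShLAMP5-AS1 cells carried a hairpin that, by its name, targets the long noncoding RNA LAMP5-AS1, and ShNC cells the control hairpin, which 1 label field calls control siRNA. Each condition had 1 ChIP and 1 input library per mark, 8 libraries in all with 1 per group, so no difference has a replicate check and no p-value is given. The growth and treatment label fields describe a xenograft-derived culture and other knockdowns, at odds with the titles and the cell type field, which were followed.

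HOX genes encode homeodomain transcription factors and lie in 4 clusters, in which gene order along the chromosome follows the order of use along the body axis. In MLL-rearranged leukemia the fusion protein keeps posterior HOXA genes, HOXA9 above all, active together with the cofactor MEIS1. MLL fusion proteins bring in DOT1L, the enzyme that adds methyl groups to this lysine of histone H3, and H3K79me2 and H3K79me3 are its di- and trimethylated products, found over transcribed genes.

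Each region has a signed score made by the authors, whose unit and scale the files do not state. The comparison is labelled ShNC-vs-ShLAMP5-AS1 for both marks, but the sources used here do not say which condition a negative score favours. Signs are therefore given as deposited, and nothing is read as a gain or a loss. The deposited tables hold no value per library. Depth is therefore unknown, and so is any difference too small to enter the lists. The score size is the score without its sign. Positions are on chromosome 7 as deposited, in a build that is not GRCh38, since 0 of 7 pairings of a region with a member's exon, intron or UTR lay inside that gene's GRCh38 bounds. Apart from it, the submitters' notes name hg19.

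The cluster also encodes a microRNA, miR-196b, whose promoter the authors' annotation named beside HOXA10. Its mature sequences are shown because 3 HOXA10 regions carry this second name, and miR-196a, encoded in the HOXB and HOXC clusters, is shown for comparison. Capitals mark the seed (bases 2 to 8), and sequences are from RefSeq on GRCh38.p14.
hsa-miR-196b-5p: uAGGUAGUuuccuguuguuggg
hsa-miR-196a-5p: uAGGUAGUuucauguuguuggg
hsa-miR-196b-3p: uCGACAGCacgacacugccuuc
The 5p forms of miR-196b and miR-196a share the seed AGGUAGU. They differ at 1 base, C12A (the base of miR-196b first, counted from its 5' end). The microRNAs of this seed family are known to target HOX messenger RNAs.

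The bases before 3 member genes' starts are shown because the authors placed member regions at the promoters of HOXA6 and HOXA11, and at that of HOTTIP, the long noncoding RNA divergent from HOXA13. Capitals mark CpG dinucleotides in the 250 bases upstream of the start, on the minus strand of RefSeq's GRCh38.p14, at chr7:27147775-27148024 for HOXA6, chr7:27185233-27185482 for HOXA11 and chr7:27200092-27200341 for HOXA13.
HOXA6: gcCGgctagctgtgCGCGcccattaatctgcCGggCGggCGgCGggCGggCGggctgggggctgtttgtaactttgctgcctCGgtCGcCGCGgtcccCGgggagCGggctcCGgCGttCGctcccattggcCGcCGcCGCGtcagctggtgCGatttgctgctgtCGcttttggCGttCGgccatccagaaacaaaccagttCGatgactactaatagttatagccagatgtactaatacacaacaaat
HOXA11: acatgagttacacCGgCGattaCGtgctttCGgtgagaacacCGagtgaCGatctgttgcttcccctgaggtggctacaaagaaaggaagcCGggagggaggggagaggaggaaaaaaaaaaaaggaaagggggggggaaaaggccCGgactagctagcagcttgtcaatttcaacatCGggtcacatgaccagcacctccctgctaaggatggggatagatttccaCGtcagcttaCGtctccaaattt
HOXA13: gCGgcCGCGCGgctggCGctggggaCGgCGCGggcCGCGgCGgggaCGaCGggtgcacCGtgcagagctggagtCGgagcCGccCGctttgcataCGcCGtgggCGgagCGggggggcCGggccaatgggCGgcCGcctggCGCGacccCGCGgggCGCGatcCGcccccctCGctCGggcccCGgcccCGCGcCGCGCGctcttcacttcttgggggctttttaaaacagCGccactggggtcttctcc
The HOXA13 window held 40 CpG, a number reached by 2.2% of 35116 RefSeq promoter windows of this length, whose median was 11. HOXA6 held 27 CpG, a number reached by 17.7% of windows, and HOXA11 held 11, equal to the median. Since the builds differ, the deposited regions were not placed on these windows.

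H3K79me3 regions lay over the part of the cluster from HOXA4 to HOXA10, and every one of them had a negative score. The 8 member regions named HOXA5, HOXA6, HOXA9 and HOXA10 and spanned 27.8 kb, and none named HOXA11 or HOXA13. H3K79me2 regions reached farther, over 54.3 kb from HOXA5 to HOXA13, with 3 negative and 6 positive scores. Of the H3K79me3 regions, 8 of 8 were negative, against 97.5% of the whole H3K79me3 table, a share near that of the table and no result about the HOXA genes. Of the H3K79me2 regions, 3 of 9 were negative, against 55.3% of the whole H3K79me2 table, and 4 of the 6 positive ones lay at HOXA13 alone.

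**Figure D1:**
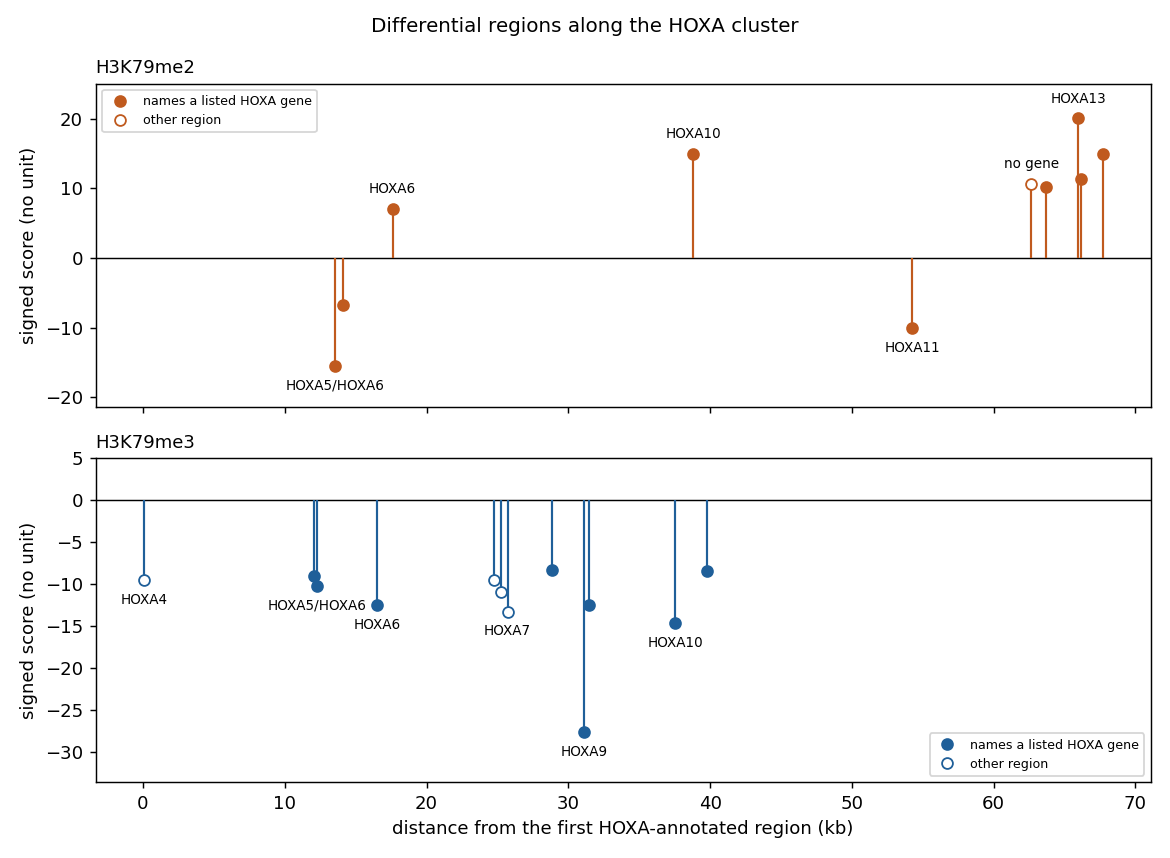
Signed scores (y axis, no unit stated) of H3K79me2 (top) and H3K79me3 (bottom) regions against distance in kb from the first region annotated to a HOXA gene. Filled points name a listed gene and open points are other regions of the stretch. H3K79me3 scores are all negative and end at HOXA10, while H3K79me2 scores have both signs and end with a positive group at HOXA13.

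HOXA5, a gene known for its part in lung and blood development, lies closest to the anterior side among the 6. A close pair of H3K79me3 regions was annotated to its promoter, at 27183333 to 27183403 and 27183494 to 27183605, which scored -9.08 and -10.25 in the authors' deposited table. They were 91 bp apart and lay in 1 CpG island. The single H3K79me2 region of HOXA5, at 27184754 to 27184856 in the same island, had -15.48 in the authors' deposited table. Of all negative H3K79me2 regions, 8.07% had a score at least this large in size. The 3 regions also fell within 2 kb downstream of HOXA6 and in an intron of HOXA-AS3, an antisense transcript, so they count for HOXA6 as well. The H3K79me2 one was annotated to the promoters of both HOXA5 and HOXA-AS3. ChIP-seq carries no strand, so the signal cannot be divided between a gene and its antisense partner.

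HOXA6, which belongs to the next paralogue group, was the member with H3K79me2 regions of both signs. Beside the region shared with HOXA5, an exonic region at 27185331 to 27185403 had -6.68 in the authors' deposited table, a size that 95.5% of negative regions reached. The region at its promoter, 27188793 to 27188969, had 7.03 in the authors' deposited table, among the smaller positive values, as 90.2% of positive regions were at least as large. This promoter region was 176 bp long, a width reached by 3.83% of H3K79me2 regions. The H3K79me3 region at the same promoter, 27187716 to 27187833, had -12.52 in the authors' deposited table. These regions of HOXA6 all fell in an intron of HOXA-AS3 too, and the exonic one also at the HOXA-AS3 promoter. The H3K79me2 and H3K79me3 promoter regions of HOXA6 did not overlap, were 960 bp apart and had opposite signs. With 97.5% of all H3K79me3 regions negative, opposite signs are common wherever an H3K79me2 region is positive.

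HOXA9, the HOX gene most closely tied to MLL leukemia, was named by 3 H3K79me3 regions and by 0 H3K79me2 regions. Its region across exon and 3' UTR, spanning 27202101 to 27202626, had the largest score among the 17, -27.64 in the authors' deposited table. Only 27 of 13329 negative H3K79me3 regions were at least as large (0.203%). It was also 525 bp long, while the other 16 member regions were 64 to 176 bp long, and 5 of 13666 H3K79me3 regions (0.0366%), itself included, were at least as long. A second region of the same exon and 3' UTR began 54 bp after it, at 27202680 to 27202744, and had -12.52 in the authors' deposited table. The third, at 27200110 to 27200183 within 2 kb downstream of the gene, had -8.32 in the authors' deposited table. So the high value of HOXA9 rested on 1 region, and its other 2 were ordinary in size, as 28.8% and 77.7% of negative H3K79me3 regions were at least as large. The H3K79me2 region nearest to the large one was 7418 bp away, at HOXA10.

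**Figure D2:**
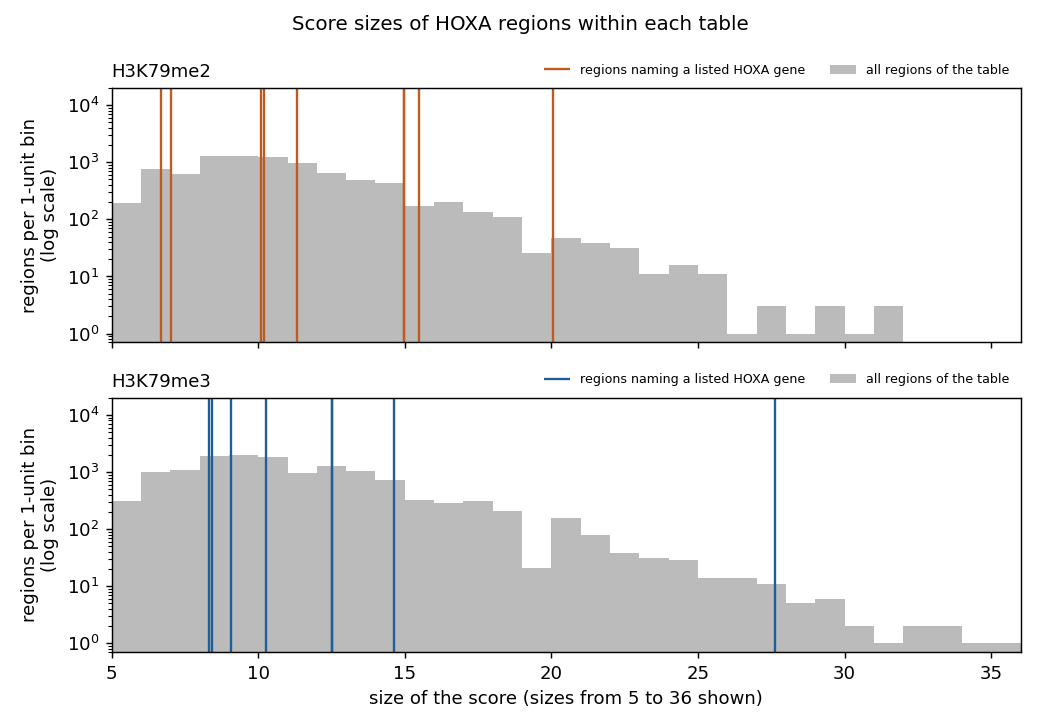
Number of regions per bin of 1 score unit (y axis, log scale) against score size for H3K79me2 (top) and H3K79me3 (bottom), with a coloured line at each region that names a listed HOXA gene. Member lines fall across the bulk of both tables, apart from the H3K79me3 region of HOXA9 at 27.64 and the H3K79me2 region of HOXA13 at 20.07.

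HOXA10, which regulates myeloid growth and the uterus, was named by 1 H3K79me2 region and by 2 H3K79me3 regions, of opposite signs. The H3K79me2 region, 27210044 to 27210137, had 14.96 in the authors' deposited table, a size that 11.4% of positive regions reached. It was annotated within 2 kb downstream of HOXA10, to the promoter of MIR196B and to introns of HOXA10-AS and of the read-through transcript HOXA10-HOXA9. The H3K79me3 regions lay on either side of it. The one at 27208770 to 27208882, annotated likewise downstream of HOXA10 and to the MIR196B promoter, had -14.63 in the authors' deposited table. The one at 27210984 to 27211095, in an exon and the 3' UTR of HOXA10, had -8.41 in the authors' deposited table. The positive H3K79me2 region was 1162 bp from the first and 847 bp from the second. As at HOXA6, the negative H3K79me3 sign was that of nearly the whole H3K79me3 table. All 3 carried the names of HOXA10, HOXA10-AS, MIR196B and HOXA10-HOXA9 together, so none can be given to a single transcript.

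HOXA11, a gene of limb, kidney and uterine development, was named by 1 region, of H3K79me2. It lay at 27225497 to 27225564, at the promoter of HOXA11 and in an exon of HOXA11-AS, and had -10.08 in the authors' deposited table. It was ordinary in size, as 51.9% of negative H3K79me2 regions were at least as large, and at 67 bp it had the least width found in the table. Within the cluster it was the only negative H3K79me2 region past HOXA6. The nearest H3K79me3 region was 14402 bp away, at HOXA10.

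HOXA13, the most posterior gene of the cluster, known for patterning hands, feet and the genital tract, was named by 4 H3K79me2 regions, all positive. In chromosome order they had 10.19, 20.07, 11.34 and 14.96 in the authors' deposited table. The first, 27234915 to 27235083, lay within 2 kb downstream of the gene. The next pair, 27237198 to 27237291 and 27237344 to 27237469, lay 53 bp apart in an exon and the 3' UTR. The last, 27238894 to 27239016, lay in an exon of HOXA13 and at the promoter of HOTTIP, which is known to bind WDR5 and to keep posterior HOXA genes active. The score of 20.07 was reached by 87 of 3911 positive H3K79me2 regions (2.22%). Directly before these 4, a region annotated to no gene, 27233852 to 27234003, had 10.67 in the authors' deposited table. With it the stretch formed 5 positive regions in a row with gaps under 10 kb, and 33 of 2855 positive runs in the H3K79me2 table, this one included, were at least as long. Gaps of 912 bp and 53 bp are among these, so merging regions within 1 kb would shorten the run. The H3K79me3 members lay in a longer run, of 11 negative regions, a length reached by 183 of 4694 negative H3K79me3 runs. No H3K79me3 region was listed between 27211095, the end of the region in the 3' UTR of HOXA10, and 27287478. This gap of 76.4 kb takes in the rest of HOXA10, HOXA11 and HOXA13.

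**Figure D3:**
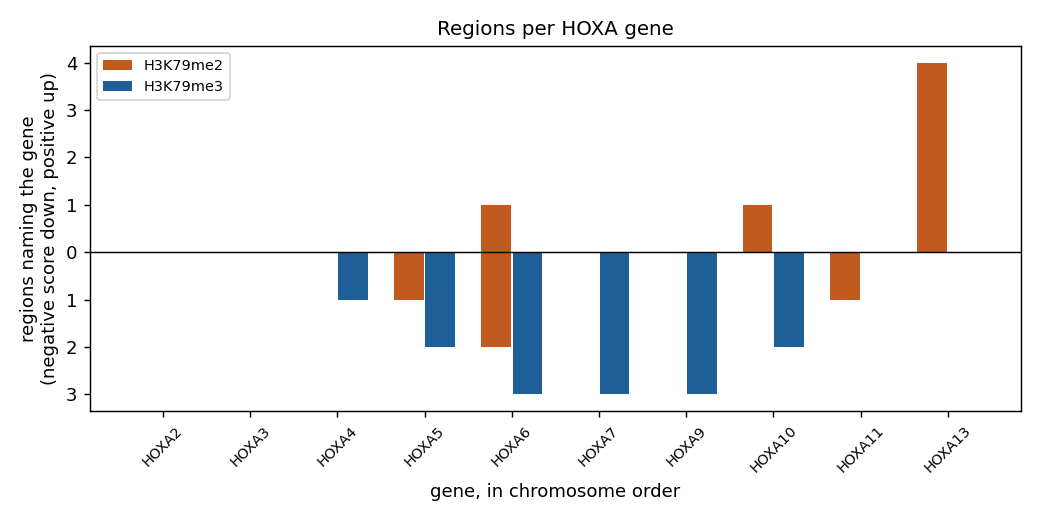
Number of regions naming each of 10 HOXA genes (y axis, negative scores drawn downward and positive upward) in chromosome order, for H3K79me2 and H3K79me3. A region naming several genes is drawn for each. H3K79me3 bars run from HOXA4 to HOXA10 and point down, and the tallest H3K79me2 bar is that of HOXA13, with 4 positive regions.

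The score sizes of the HOXA regions were near those of their tables. The median size was 11.34 for H3K79me2 members, against 10.19 for all H3K79me2 regions, and 11.38 for H3K79me3 members, against 10.19 for all H3K79me3 regions. A size of at least 10 was found for 7 of 9 H3K79me2 members, against 52.3% of the table, and for 5 of 8 H3K79me3 members, against 54.2% of the table. The signed H3K79me2 median of 10.19 over members rests on HOXA13: without its 4 regions the median was -6.68 over 5. This is near the signed median of the whole H3K79me2 table, -6.95. Scores take few distinct values. The score 14.96, found at both HOXA10 and HOXA13, was shared by 72 H3K79me2 regions, and -12.52, found at both HOXA6 and HOXA9, by 490 H3K79me3 regions. Equal scores are therefore no sign of a link between genes.

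In annotation, the HOXA regions differed from most of each table. All 17 lay in a CpG island or its shore (a column that did not choose them), 4 of 9 H3K79me2 members and 3 of 8 H3K79me3 members in an island itself. This compares with 13.5% of all H3K79me2 and 21.8% of all H3K79me3 regions in an island or shore, and 1.68% and 3.26% in an island. Among regions with a promoter annotation, which most often lie near islands, the shares were 6 of 6 and 5 of 5 for members, against 75.7% of 485 H3K79me2 and 82.3% of 1122 H3K79me3 promoter regions. Of the H3K79me2 members 6 of 9 named the promoter of some gene, against 5.55% of the table, and of the H3K79me3 members 5 of 8, against 8.21%. The rule read the promoter column among others, so these promoter shares were partly fixed by it. All 17 lie in 1 locus, so their annotations are not independent of each other and no test was made.

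**Figure D4:**
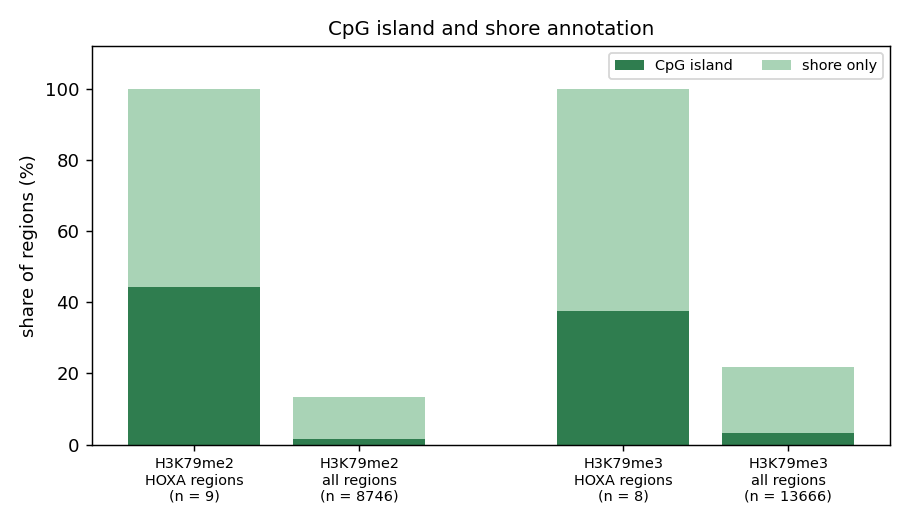
Share of regions (y axis, %) annotated to a CpG island (dark) or to a shore only (light), for regions naming a listed HOXA gene and for all regions, per mark. All HOXA regions of both marks fall in 1 of these classes, against 13.5% of all H3K79me2 and 21.8% of all H3K79me3 regions.

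The letters of sites for HOX partners and of core promoter motifs were looked for anywhere in the members' upstream windows, on both strands. Distance from the start was not considered, so a match is a run of letters and not shown to be a working site. RefSeq windows were found for 5 of 6 members, HOXA5 being the one without. TATAAA, the letters of the TATA box, occurred upstream of HOXA9 and of both starts of HOXA10, and is in 10.7% of all windows. Neither its place nor its strand was required to be that of a TATA box. CCAAT, the letters of the CCAAT box, occurred upstream of HOXA6, HOXA9, HOXA10 and HOXA13, but not HOXA11, and is in 32.0% of all windows. TGACAG, a site for MEIS proteins, and TGATTTAT, a site for HOX and PBX proteins together, were found in 0 member windows and are in 13.0% and 0.8% of all windows.

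Other regions of the same mark were counted around each member. Each H3K79me3 member had 11 other H3K79me3 regions within 50 kb, against a median of 6 over the table, whose highest value was 79. H3K79me2 members had 5 to 9 other H3K79me2 regions within 50 kb, against a table median of 2 and a highest value of 104. The members were chosen from the same cluster, the 8 H3K79me3 ones within 27.8 kb and the 9 H3K79me2 ones within 54.3 kb. Members of a mark were therefore largely neighbours of each other by choice. The comparison with the table medians thus cannot show whether regions are denser in this cluster than elsewhere. Outside the cluster there was little. For H3K79me2 the nearest regions were introns of SKAP2, 292.9 kb below, and of TAX1BP1, 561.0 kb above. For H3K79me3 the region below HOXA5 was still in the cluster, at the promoter of HOXA4, 11.9 kb away, with -9.51 in the authors' deposited table. The next H3K79me3 region below it, annotated to no gene, was 61.3 kb farther and had -10.25 in the authors' deposited table. The one above HOXA10 was at the EVX1-AS promoter, downstream of the homeobox gene EVX1, with -20.19 in the authors' deposited table. Beyond EVX1-AS no H3K79me3 region followed for 3.35 Mb, up to GARS.

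Among other HOXA genes, HOXA7 was named by 3 negative H3K79me3 regions and HOXA4 by 1, and HOXA2 and HOXA3 by 0, while none of these 4 was named by an H3K79me2 region. HOXA7, between HOXA6 and HOXA9, had -9.51, -10.93 and -13.3 at its promoter in the authors' deposited table. Of 38 HOX genes examined in the 4 clusters, 8 were named by a region, and 0 of the 28 HOXB, HOXC and HOXD genes were. Of 20056 protein-coding RefSeq genes matched by current symbol, 23.8% were named by a region of either mark, 16.1% by an H3K79me2 and 17.1% by an H3K79me3 region, so a gene without one was the common case. An unlisted gene may lack the mark in both conditions or carry it equally, and the tables do not tell these apart. By the number and sign of regions in each mark, HOXA9 was matched among the listed genes by HOXA7 alone (3 negative H3K79me3, 0 H3K79me2), and HOXA10 by MIR196B and HOXA10-AS, which share its regions. HOXA11 was matched by EED and by HOXA11-AS, which shares its region. HOXA5, HOXA6 and HOXA13 were matched by no listed gene. These profiles were not particular to the cluster, since among the 5820 genes named in the tables HOXA5 was matched by 103, HOXA6 by 11, HOXA9 by 178, HOXA10 by 76, HOXA11 by 611 and HOXA13 by 5.

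Of 9 genes for cofactors of HOX proteins, 3 had regions in each mark, MEIS1, PBX3 and PKNOX1, against 16.1% of all protein-coding genes for H3K79me2 and 17.1% for H3K79me3. MEIS1 had 8 H3K79me2 and 55 H3K79me3 regions, all negative, the largest scoring -21.47 and -32.84 in the authors' deposited table. PBX3 had 9 negative and 6 positive H3K79me2 regions, and 103 negative H3K79me3 regions and 1 positive one. Of 18 regulators of HOXA genes around MLL, DOT1L and Polycomb, 11 had H3K79me2 regions, 3 with negative only, 2 with positive only and 6 with both, and 10 had H3K79me3 regions. These were all negative, as were 97.5% of that table, and the shares of all protein-coding genes with a region were 16.1% for H3K79me2 and 17.1% for H3K79me3. Gene length was not matched. The largest H3K79me3 scores among these regulators in the authors' deposited table were -21.47 for DOT1L, -20.75 for the Polycomb gene BMI1 and -17.5 for both AFF1, a subunit of the elongation machinery and MLL fusion partner, and SUZ12, another Polycomb gene. For H3K79me2 they were -15.48 for AFF4, a scaffold of the same machinery, and 15.26 for MLLT10 and 14.21 for MLLT1, both MLL fusion partners, in the authors' deposited table. The labelled cell type could not be checked from these tables, because their regions mark differences between libraries and do not measure expression. Of 6 genes typical of such myeloid cells, MEIS1 counted again, 5 had an H3K79me2 and 3 an H3K79me3 region, against the same 16.1% and 17.1%. LYZ had 0 of either mark, and MPO and CSF1R had 1 region each, of H3K79me2. Of 5 markers of other tissues 0 had one of either mark, against 23.8% of all protein-coding genes. A gene without a region was the common case, so these counts do not speak to cell identity.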

How the data were processed

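ChIP-seq of H3K79me2 and H3K79me3 gave 1 deposited table for each mark, of regions that differ between the conditions. The signed score of each region is the authors' own, and no unit is stated for it. Per the submitters' processing notes the builds were GRCh38, hg38 and hg19, and the tools DESeq2, bedtools, Bowtie2 and MACS2 2.1.1, with no role given. How the regions were called is not given in the sources used here, so a region's width and score cannot be traced to reads.

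Regions were assigned by exact gene symbol in columns 6 to 12 (Python 3.11.15, pandas 2.3.3, numpy 2.4.6). A region counts for every gene it names. Score ranks were taken among regions of the same sign and mark, and overlap needed at least 1 bp. Neighbour counts used region midpoints within 50 kb. Gene order, promoters and microRNAs came from RefSeq GRCh38.p14, where 6 of 6 members matched. An item that the gene lists held is not reported here. Code was tested on a made-up table.

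The members and gene lists were chosen with earlier results of these data known. Named were the 6 members, other cluster genes that their regions name, the nearest regions on each side and up to 3 leading genes of the other lists. For genes with the same number and sign of regions, up to 5 were named. Alternatives were a score size of at least 10, promoter and gene body columns only, merging within 1 kb, every HOXA transcript and other overlap rules. Leaving out HOXA13 or HOXA9 was added after the data were seen.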

Additional observations from a re-analysis of the deposited data

How the results depend on the processing

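Depth limits every value here, since the tables hold no read totals and each group has 1 library. No paired analysis was possible because each group had 1 library and no test was made. The H3K79me2 members numbered 7 under a score size of at least 10, under promoter and gene body columns only and after merging within 1 kb, and 9 with every HOXA transcript, against 9 as reported. Without HOXA13 they numbered 5, and the median score reversed to -6.68, against 10.19 as reported, because the 4 HOXA13 regions are positive. The H3K79me2 median stayed between 7.03 and 11.34 under the other alternatives. The H3K79me3 members numbered 5 under a score size of at least 10 and 5 without HOXA9, 6 under promoter and gene body columns only and after merging, and 12 with every HOXA transcript, against 8 as reported. Their median stayed between -12.52 and -10.25 under all alternatives run, and every region kept under each was negative. Of the 17 member regions, 0 overlapped a region of the other mark by 1 bp or by 50% reciprocally, and 4 lay within 1 kb of one, those at HOXA6 and HOXA10. The size minimum and the left-out genes act by removing regions.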
